A study of Mus musculus with 6 samples.

Results

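The genes of this account are 10 genes of the intercalated disc, the junction that joins heart muscle cells end to end. They were taken by gene symbol from a deposited table of 31529 mouse genes, and all 10 were found there. Of these, 5 encode the cardiac desmosome (Dsp, Pkp2, Jup, Dsg2 and Dsc2). The other 5 encode N-cadherin, catenins and the scaffold of the adherens junction (Cdh2, Ctnna1, Ctnna3, Ctnnb1 and Tjp1). RNA came from whole hearts of wild-type (WT) mice of the outbred ICR stock, at embryonic day 18.5 (E18.5) and embryonic day 16.5 (E16.5), with 3 libraries per stage. No treatment, transgene or mutant allele is given for either stage, so fetal age is the only labelled difference. Per the design text the libraries are biological replicates, and whether each holds 1 heart or several is not stated. The comparison of the stages asks how heart RNA differed across the last days before birth.

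Desmosomes tie the desmin filaments of neighbouring heart muscle cells together. Desmogleins and desmocollins span the membrane, plakoglobin and plakophilins bind their tails in the plaque, and desmoplakin links the plaque to the filaments. Adherens junctions tie actin filaments together through N-cadherin, beta-catenin and alpha-catenins. In the rodent heart both junction types are laid down before birth and gather at the cell ends after it, where they mix into a structure called the area composita. In people, mutations of the desmosomal genes are the main known cause of arrhythmogenic cardiomyopathy.

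The estimated counts summed to between 61443414 and 71510191 at E18.5 and between 67082123 and 77237333 at E16.5. Each member held between 685 and 34721 counts in each library. Genes of the mitochondrial chromosome took 33.5%, 26.7% and 25.2% of the counts in E18.5 replicates 1, 2 and 3, against 41.4%, 19.9% and 35.0% in E16.5 replicates 1, 2 and 3. Heart muscle markers were abundant, and 10 cardiomyocyte genes summed to 34702 to 41471 CPM at E18.5 and 30196 to 37911 CPM at E16.5. Of 6 epithelial genes that could bring desmosomal RNA from other organs, 5 were tested, with 1 higher, 4 lower and 0 called. Epcam stood at 0.341 to 0.595 CPM at E18.5 and 0.526 to 1.27 CPM at E16.5. Krt14, a keratin of stratified epithelia, stood at 4.70, 3.89 and 2.77 CPM at E18.5, against 1.32, 0.357 and 0.277 CPM at E16.5, without overlap (unadjusted p = 0.0023, adjusted p = 0.214, edgeR). The surfactant gene Sftpc of lung epithelium stood higher, at 33.5 to 64.9 CPM at E18.5 and 35.8 to 59.7 CPM at E16.5, and the part of such cells in the results was not tested. In whole tissue, fewer cells of a type and less RNA per cell cannot be told apart.

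By stage means, alpha- and beta-catenin RNA stood highest per length and alpha-T-catenin lowest. Levels between genes are given in FPKM (fragments relative to transcript length and to the library's total), as the authors computed it. Ctnna1, the alpha-catenin found in most cells, averaged 73.9 ± 7.96 FPKM at E18.5 and 57.7 ± 13.9 FPKM at E16.5 (SD, n = 3 each). Ctnnb1, beta-catenin, averaged 65.5 ± 2.74 FPKM at E18.5 and 60.5 ± 24.7 FPKM at E16.5. These genes exchanged first place between the stages, and at E16.5 Ctnnb1 was above Ctnna1 in 1 of 3 libraries. The plakophilin gene Pkp2 followed at 35.5 ± 4.29 FPKM at E18.5 and 47.8 ± 1.78 FPKM at E16.5. At E16.5 Ctnna1 stood above Pkp2 in 2 of 3 libraries, and their ranges overlapped. In E16.5 replicate 1 Pkp2, at 48.3 FPKM, was above both Ctnna1 (45.0 FPKM) and Ctnnb1 (39.4 FPKM).

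Cdh2, N-cadherin, averaged 15.3 ± 2.70 FPKM at E18.5 and 16.0 ± 4.52 FPKM at E16.5. Dsp, desmoplakin, averaged 12.5 ± 3.40 FPKM at E18.5 and 11.2 ± 4.72 FPKM at E16.5. Tjp1, the actin-binding scaffold ZO-1, averaged 11.6 ± 1.299 FPKM at E18.5 and 10.4 ± 4.39 FPKM at E16.5. The ranges of neighbours among Cdh2, Dsp and Tjp1 overlapped at both stages, though Cdh2 stood above both Dsp and Tjp1 within every library. Dsp stood above Tjp1 in 2 of 3 libraries at E18.5 and in 3 of 3 at E16.5. Jup, plakoglobin, which serves both junction types, averaged 8.92 ± 0.758 FPKM at E18.5 and 8.74 ± 2.62 FPKM at E16.5. Its range met that of Tjp1 at E16.5 and lay below it at E18.5.

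The desmosomal cadherins stood below their plaque proteins. Dsg2, desmoglein-2, averaged 4.12 ± 0.574 FPKM at E18.5 and 4.74 ± 0.680 FPKM at E16.5. Dsc2, desmocollin-2, averaged 3.57 ± 0.791 FPKM at E18.5 and 3.22 ± 0.793 FPKM at E16.5, and its range overlapped that of Dsg2 at both stages. Ctnna3, an alpha-catenin that in mouse and human is made mainly in heart and testis, was last at 1.60 ± 0.338 FPKM at E18.5 and 1.4999 ± 0.272 FPKM at E16.5. The plot of FPKM by gene shows this order and the wide E16.5 spread of several members. E16.5 replicate 2, the library with the lowest mitochondrial share, was the highest of its stage in FPKM for every member except Pkp2, for which it was the lowest. In CPM after TMM scaling, that library was also the lowest of its stage for Dsg2 (40.2 CPM) and Ctnna3 (11.3 CPM). For Ctnna1 it lay between the others (415 CPM), and for the remaining members it was again the highest. The part of the mitochondrial share in these levels was not tested.

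**Figure D1:**
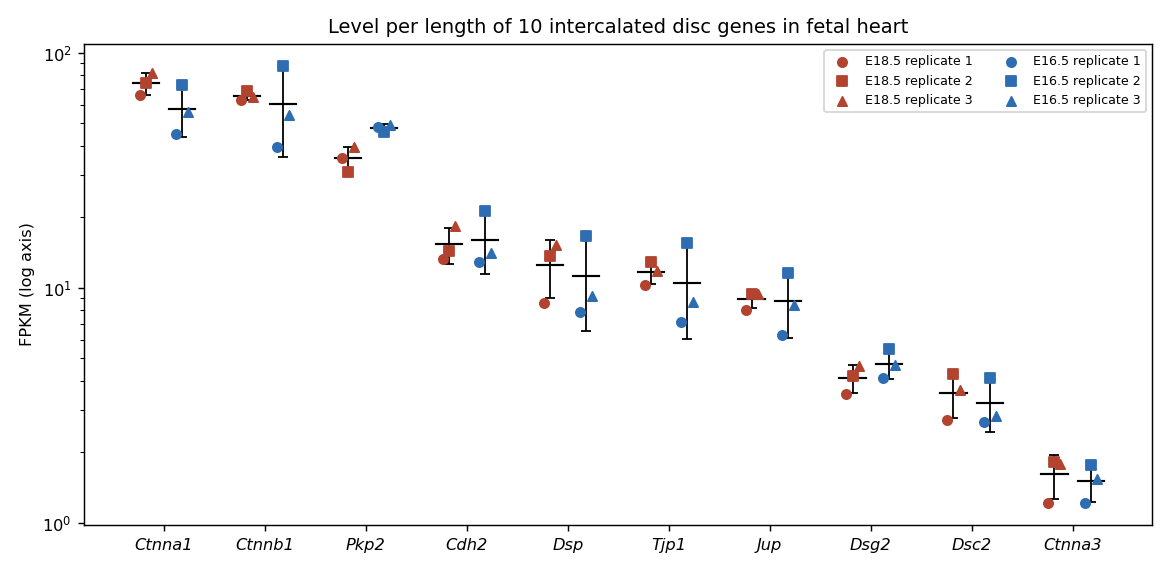
FPKM of the 10 genes on a log axis, genes ordered by their E18.5 mean. Symbols are libraries, bars are means with the SD over 3 libraries, and E18.5 stands left of E16.5. By their means, Ctnna1 and Ctnnb1 lie at the top and Ctnna3 at the bottom at both stages.

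Other genes of the same families were mostly far below the members. Among the other desmosomal cadherins and plakophilins, Dsg1c, Dsg3, Dsc3 and Pkp1 were too low to be tested, with mean FPKM of 0.00831, 0.000723, 0.0128 and 0 at E18.5 and of 0, 0, 0.00339 and 0.00966 at E16.5. Pkp3 averaged 0.0446 FPKM at E18.5 and 0.0334 FPKM at E16.5. Pkp4, a relative of the plakophilins that sits mainly at adherens junctions, averaged 18.4 ± 0.931 FPKM at E18.5 and 18.9 ± 3.18 FPKM at E16.5. The neuronal alpha-catenin Ctnna2 averaged 0.158 FPKM at E18.5 and 0.227 FPKM at E16.5. Ctnnd1, p120-catenin, which binds cadherins near the membrane, averaged 13.5 ± 2.29 FPKM at E18.5 and 14.2 ± 4.50 FPKM at E16.5. Tjp3, a relative of Tjp1, averaged 0.571 FPKM at E18.5 and 1.10 FPKM at E16.5.

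Between the stages, 0 of the 10 members passed the test (edgeR quasi-likelihood, Benjamini-Hochberg over 19959 genes, adjusted p under 0.05). Over all genes tested, 30 passed, or 0.15%, with 0.0952% higher and 0.0551% lower at E18.5. The count of members was also 0 with DESeq2 and with limma on FPKM. At an unadjusted p under 0.05, 2 members were lower at E18.5 (Pkp2 and Dsg2) and 0 were higher, where 9.53% of all genes tested reached that threshold, 4.7% lower and 4.83% higher. The 10 members split into 5 with a positive and 5 with a negative log2 change, and 49.8% of all genes tested had a positive one. The members' median was 0.02, against -0.0019 over all genes tested. The desmosomal members had a median of -0.04 and the adherens members one of 0.07. Summed, the desmosomal members held 433, 417 and 469 CPM at E18.5, against 575, 487 and 549 CPM at E16.5, and these sums did not overlap. The largest part of that sum was Pkp2, at a mean of 200 CPM at E18.5 and 295 CPM at E16.5, so the sums mostly follow this gene. Of the 5 desmosomal members, 2 were higher and 3 lower, and for 1 of them the stages did not overlap. How often sums of other genes do not overlap was not counted. The adherens members summed to 1107, 1062 and 1096 CPM at E18.5, against 898, 1092 and 991 CPM at E16.5, and here the stages overlapped.

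Pkp2 differed most among the members. It encodes plakophilin-2, the armadillo protein that gathers desmoplakin and plakoglobin at the plaque (ENSMUSG00000041957, GRCm38 chromosome 16, 16213318 to 16272712). Levels between stages are given in CPM, a count scaled to the library's total after TMM scaling. Pkp2 stood at 224, 167 and 209 CPM in E18.5 replicates 1, 2 and 3, against 351, 219 and 314 CPM in E16.5 replicates 1, 2 and 3. E16.5 replicate 2 lay below E18.5 replicate 1, so the stages overlapped on this scale. The log2 change was -0.56 ± 0.21 (SE), a fold of 0.679 with a 95% interval of 0.491 to 0.941, and an adjusted p of 0.440. On the FPKM scale the stages did not overlap, at 35.8, 31.1 and 39.7 FPKM at E18.5 against 48.3, 45.8 and 49.2 FPKM at E16.5. The share of all genes without overlap in FPKM was not counted, and the part of the mitochondrial share in this separation was not tested. Without E16.5 replicate 2, the CPM change was -0.73 and its adjusted p 0.0530. Without any other single library, it ran from -0.65 to -0.42, with adjusted p of 0.483 to 0.937. With the mitochondrial share as a term, it was -0.42 and its adjusted p 0.130.

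Dsg2, which binds across the cell gap to desmocollins, was, with Pkp2, the other member with an unadjusted p under 0.05 (ENSMUSG00000044393, chromosome 18, 20558074 to 20604521). It stood at 34.01, 34.8 and 37.8 CPM at E18.5, against 46.1, 40.2 and 46.0 CPM at E16.5. All E18.5 libraries lay below all E16.5 libraries, as did 8.02% of all genes tested. In either direction, 16.5% of all genes tested did not overlap, against 2 of the 10 members. The log2 change was -0.31 ± 0.12 (SE), a fold of 0.807 with a 95% interval of 0.665 to 0.978, and the adjusted p was 0.472. In FPKM the stages overlapped for Dsg2, from 3.51 to 4.65 FPKM at E18.5 and from 4.10 to 5.46 FPKM at E16.5.

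Ctnna1, which carries beta-catenin's link to actin (ENSMUSG00000037815, chromosome 18, 35118859 to 35254779), was the only other member without overlap, on the side where 8.45% of all genes tested stood. It stood at 495, 476 and 517 CPM at E18.5, against 392, 415 and 426 CPM at E16.5. The log2 change was 0.27 ± 0.13 (SE), a fold of 1.21 with a 95% interval of 0.980 to 1.48, and the adjusted p was 0.553. Its replicates lay close, with an SD of 20.1 CPM at E18.5 and 17.1 CPM at E16.5. In FPKM, E16.5 replicate 2 lay among the E18.5 libraries, at 72.5 FPKM.

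For the other 7 members the log2 change lay within 0.15 of no change. Dsp, the link to desmin (chromosome 13, 38151294 to 38198577), stood at 97.5, 132 and 144 CPM at E18.5, against 103, 143 and 106 CPM at E16.5. Libraries of both stages were mixed in order, and the log2 change was 0.08 ± 0.19 (SE), at an adjusted p of 0.906. Jup, the armadillo protein shared by both junctions (chromosome 11, 100368958 to 100397763), stood at 60.6, 60.4 and 59.2 CPM at E18.5, against 55.0, 66.1 and 64.6 CPM at E16.5. The E18.5 libraries fell inside the E16.5 range, and the log2 change was -0.04 ± 0.12 (SE), with a 95% interval for the fold of 0.797 to 1.18. Dsc2, the partner of desmoglein (chromosome 18, 20030633 to 20059554), stood at 16.9, 22.8 and 19.1 CPM at E18.5, against 19.2, 19.4 and 17.9 CPM at E16.5. Here the E16.5 libraries fell inside the E18.5 range, and the log2 change was 0.06 ± 0.15 (SE).

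Cdh2, the classical cadherin of heart muscle (chromosome 18, 16588877 to 16809246), stood at 124, 116 and 145 CPM at E18.5, against 140, 152 and 134 CPM at E16.5. E18.5 replicate 3 lay inside the E16.5 range and the other E18.5 libraries below it, and the log2 change was -0.15 ± 0.14 (SE). Ctnnb1, which is both a junction protein and the transcriptional partner of Wnt signalling (chromosome 9, 120929216 to 120960507), stood at 383, 356 and 331 CPM at E18.5, against 278, 406 and 336 CPM at E16.5. The highest and the lowest library were both of E16.5, and the log2 change was 0.07 ± 0.17 (SE). Tjp1 (chromosome 7, 65296165 to 65527781) stood at 93.9, 101 and 90.3 CPM at E18.5, against 75.8, 107 and 81.1 CPM at E16.5. E16.5 replicate 2 lay above all E18.5 libraries and the other E16.5 libraries below them, and the log2 change was 0.11 ± 0.16 (SE). Without that library it was 0.28, with an adjusted p of 0.185, and without E16.5 replicate 1 it was 0.0017. Ctnna3 (chromosome 10, 63430098 to 65003667) stood at 10.3, 13.2 and 12.6 CPM at E18.5, against 11.9, 11.3 and 13.3 CPM at E16.5. Its libraries were mixed, and the log2 change was -0.01 ± 0.16 (SE), the smallest in size of the 10.

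**Figure D2:**
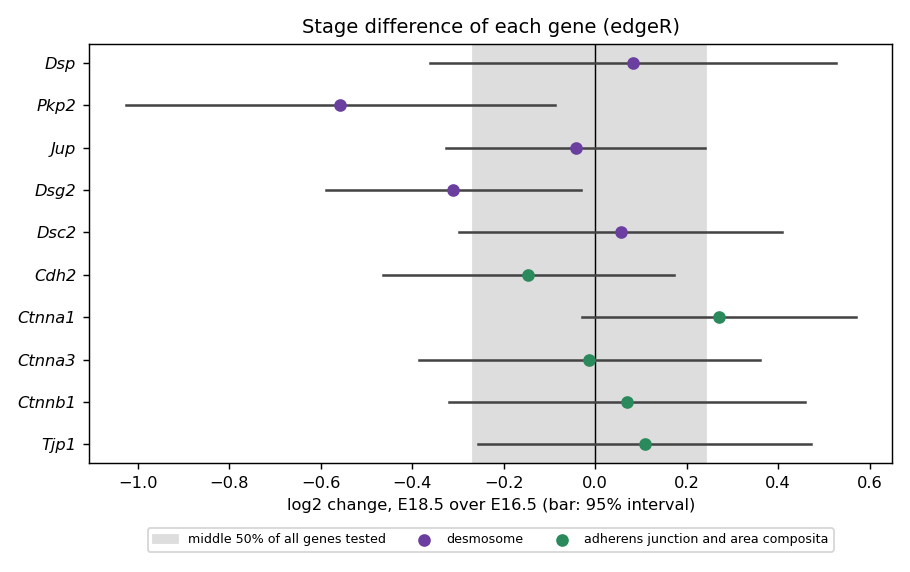
Log2 change of each gene, E18.5 over E16.5, with its 95% interval (edgeR), desmosomal genes above the adherens genes, and a grey band over the middle 50% of all genes tested. The intervals of Pkp2 and Dsg2 lie below 0, and those of the other 8 genes include 0.

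The intervals bound what these libraries could show. For 8 members the whole 95% interval lay within a 1.5-fold difference in either direction, a bound chosen after the values were seen. The exceptions were Pkp2, with a lower bound of 0.491, and Dsg2, with a lower bound of 0.665. An adjusted p above the threshold does not show that a gene was equal at both stages.

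Ratios of partner genes within a library do not depend on how libraries are scaled against each other. There were 6 ratios, each compared over the 3 libraries per stage with a two-sided exact permutation test, whose smallest possible p is 0.1. Desmoglein RNA per desmocollin RNA (Dsg2/Dsc2, in FPKM) was 1.29, 0.977 and 1.27 at E18.5, against 1.53, 1.32 and 1.64 at E16.5. All E18.5 ratios lay below all E16.5 ratios, with a log2 difference of -0.35, an exact p of 0.1 and an adjusted p of 0.3 over the 6 ratios. Plakophilin-2 per desmoplakin (Pkp2/Dsp) was 4.14, 2.29 and 2.62 at E18.5, against 6.15, 2.75 and 5.33 at E16.5. Here the stages overlapped through E18.5 replicate 1 and E16.5 replicate 2 (log2 difference -0.62, exact p = 0.2). In every library Pkp2 RNA stood above Dsp RNA.

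Alpha-T-catenin per alpha-E-catenin (Ctnna3/Ctnna1) was 0.0184, 0.0245 and 0.0217 at E18.5, against 0.0269, 0.0241 and 0.0277 at E16.5, a log2 difference of -0.29 (exact p = 0.2). Plakoglobin per beta-catenin (Jup/Ctnnb1) was 0.127, 0.137 and 0.144 at E18.5, against 0.160, 0.131 and 0.155 at E16.5 (log2 difference -0.12, exact p = 0.3). These armadillo proteins compete for the same site on cadherin tails, and the beta-catenin RNA was the larger in every library. Desmoglein-2 per N-cadherin (Dsg2/Cdh2) averaged 0.271 ± 0.0201 at E18.5 and 0.304 ± 0.0406 at E16.5 (SD, n = 3 each), with an exact p of 0.3. ZO-1 per N-cadherin (Tjp1/Cdh2) averaged 0.773 ± 0.128 at E18.5 and 0.637 ± 0.0858 at E16.5, with an exact p of 0.2. The adjusted p was 0.3 for each ratio. Leaving out a single library moved differences by over 1.5 times. Pkp2/Dsp was at -0.39 without E16.5 replicate 1 and at -0.97 without E16.5 replicate 2. Dsg2/Dsc2 was at -0.23 without E18.5 replicate 2, and Ctnna3/Ctnna1 at -0.18 without E18.5 replicate 1.

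**Figure D3:**
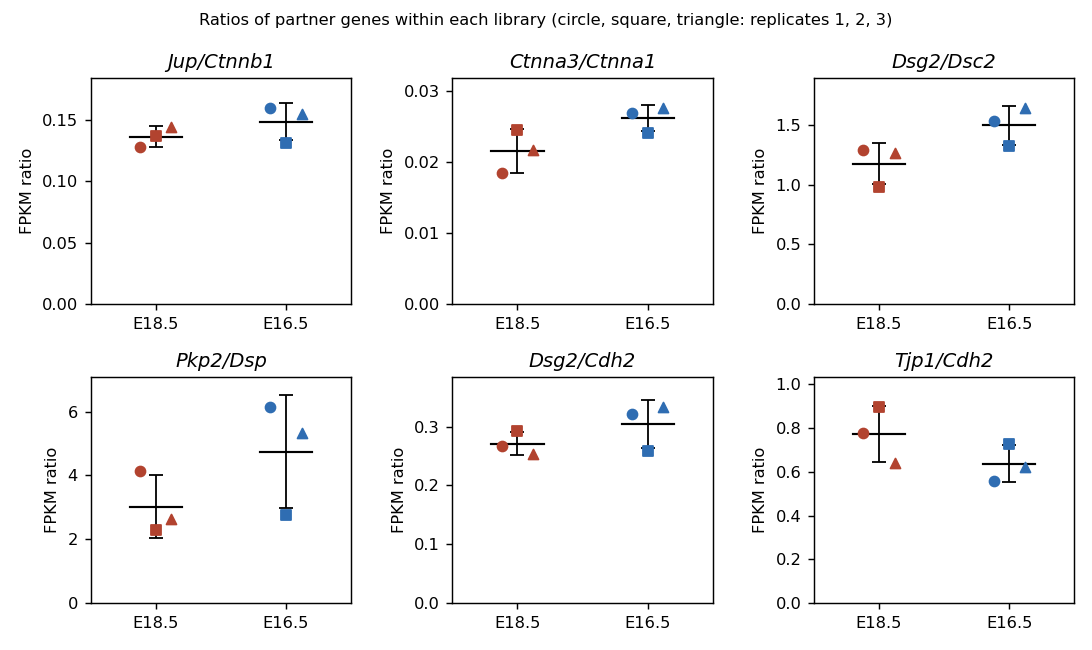
FPKM ratio of 6 pairs of partner genes in each library, E18.5 left of E16.5, with the mean and SD over 3 libraries. Dsg2/Dsc2 is the 1 pair whose stages do not overlap.

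The relation of each member to the mitochondrial share of the libraries was examined after the data were seen, and none passed after adjustment. From the lowest to the highest mitochondrial share, the libraries run E16.5 replicate 2, E18.5 replicates 3, 2 and 1, E16.5 replicate 3 and E16.5 replicate 1. Dsp was at 132 to 144 CPM in the first 3 of these and at 97.5 to 106 CPM in the last 3. Over the 6 libraries, the log2 CPM of Dsp and the share gave a Pearson r of -0.884 (exact permutation p = 0.0389) and a Spearman rho of -0.771 (exact permutation p = 0.103). Tjp1 gave r = -0.890 (exact permutation p = 0.0181) and rho = -0.829 (exact permutation p = 0.0583). Ctnnb1 gave r = -0.734 (exact permutation p = 0.0944) and rho = -0.600 (exact permutation p = 0.242). Pkp2 ran the other way, with r = 0.770 (exact permutation p = 0.0736) and rho = 0.771 (exact permutation p = 0.103).

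None of these relations passed over the 10 members, with a lowest adjusted p of 0.181 for r and 0.343 for rho. Leaving out E16.5 replicates 1 and 2, the libraries farthest from the median share, r was -0.945 for Dsp, -0.583 for Tjp1, 0.787 for Pkp2 and 0.335 for Ctnnb1, whose relation rests on those libraries. For Jup r was -0.607 over all libraries and 0.796 without those libraries, so it too rests on them. For the remaining members r over all libraries ran from -0.372 to 0.473. Over all genes tested, 6.6% had an r at or below that of Dsp and 12.8% one at or above that of Pkp2. With 3 libraries per stage, no correlation is given within a stage. In order of rising share, Dsp stood at 144, 132 and 97.5 CPM within E18.5 and at 143, 106 and 103 CPM within E16.5. With the share as a term beside stage, the stage difference of Dsp on the log2 scale was -0.02. The share was higher in 2 of the 3 E16.5 libraries than in any E18.5 library.

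**Figure D4:**
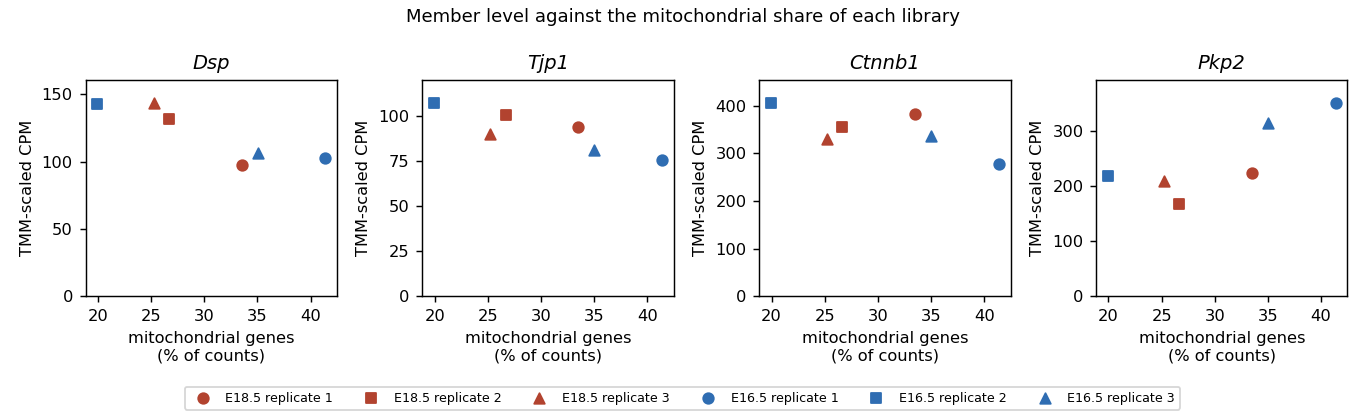
TMM-scaled CPM of Dsp, Tjp1, Ctnnb1 and Pkp2 against the percentage of counts from mitochondrial genes, 1 point per library. Dsp and Tjp1 tend to be lower in the libraries with a larger share. Pkp2 is highest in E16.5 replicates 3 and 1, which have the largest shares, and shows no steady rise over the other libraries. No relation passed after adjustment.

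Among the members, Ctnnb1 and Tjp1 had the most similar profiles over the 6 libraries, with a root mean square distance of 0.0842 between their centred log2 CPM values. Tjp1 was also the nearest member to Dsp, at 0.180. Pkp2 was the farthest member from each of Dsp, Jup, Dsc2, Cdh2, Ctnna1, Ctnna3, Ctnnb1 and Tjp1, at 0.337 to 0.539. Among 5396 genes with a mean of at least 5 FPKM, the nearest to Dsp were Atrx (0.0483), Erbin (0.0569) and Ivns1abp (0.0597). The nearest to Ctnnb1 were Cmc2 (0.0313), Tmed9 (0.0353) and Ptma (0.0378). Near Ctnna3, among 5397 genes, lay Vcp (0.0538) and Senp2 (0.0563). Over 6 libraries, such distances are descriptions of these libraries.

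The 250 bases before an annotated start are shown for Dsp, Tjp1 and Ctnnb1, the 3 members with the most negative r with the mitochondrial share. Sequences are from RefSeq on GRCm38, whose promoter table held 5 of the 10 members, and each is written 5′ to 3′ on the strand of its gene. Capitals mark matches to GGGCGG (the GC box) or CCAAT on either strand.
Dsp (chr13:38151044-38151293, plus strand): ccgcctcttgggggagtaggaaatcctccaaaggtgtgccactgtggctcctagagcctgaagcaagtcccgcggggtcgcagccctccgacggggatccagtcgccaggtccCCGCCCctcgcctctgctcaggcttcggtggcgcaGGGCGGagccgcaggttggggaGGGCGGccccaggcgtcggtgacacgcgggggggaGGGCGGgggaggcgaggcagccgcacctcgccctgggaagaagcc
Ctnnb1 (chr9:120933150-120933399, plus strand): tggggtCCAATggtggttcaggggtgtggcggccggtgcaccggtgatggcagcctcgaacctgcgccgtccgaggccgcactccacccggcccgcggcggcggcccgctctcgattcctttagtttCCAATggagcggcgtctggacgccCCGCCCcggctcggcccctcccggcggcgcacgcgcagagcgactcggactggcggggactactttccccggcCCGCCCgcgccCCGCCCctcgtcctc
Tjp1 (chr7:65371245-65371494, minus strand): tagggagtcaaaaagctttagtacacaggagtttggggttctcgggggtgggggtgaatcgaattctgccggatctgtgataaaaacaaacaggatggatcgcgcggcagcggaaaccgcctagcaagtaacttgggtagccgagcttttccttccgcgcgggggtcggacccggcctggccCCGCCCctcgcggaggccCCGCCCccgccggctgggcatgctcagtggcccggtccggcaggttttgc
The Dsp window held 4 GC boxes, the Ctnnb1 window 3 and the Tjp1 window 2. CCAAT occurred 2 times in the Ctnnb1 window and not in the others. Neither the TATA box TATAAA nor the GATA motif AGATAA nor the TCF/LEF motif CTTTGAT was in these windows on either strand. Of 32851 annotated promoter windows of the same length, 32.7% held a GC box, 33.8% CCAAT, 12.4% the TATA box, 9.99% the GATA motif and 3.21% the TCF/LEF motif. The windows were rich in G and C, at 72.4% for Dsp, 74.8% for Ctnnb1 and 63.2% for Tjp1. Ctnnb1 has a further annotated start whose window overlaps the one shown and holds 1 TATA box. The Ctnnb1 and Tjp1 windows lie inside the gene spans given above, at starts annotated within them. A match describes letters only and does not show binding.

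Around the members, the other genes of the desmosome had a larger median difference, though no single gene passed. Of 14 listed, 10 were in the table and 6 were tested, with 4 higher, 2 lower and a median log2 change of 0.47. The test called 0 of them, and 1 had an unadjusted p under 0.05. The median lies between Perp and Pkp3, and Pkp3 held only 0 to 18 counts per library, with a log2 change of 0.39 ± 1.18 (SE). The tested genes also include Pkp4, which sits mainly at adherens junctions. The gene with the smallest p was Ppl, periplakin, a plakin related to desmoplakin, at 16.2, 13.1 and 12.3 CPM at E18.5, against 6.44, 7.24 and 6.96 CPM at E16.5. All E18.5 libraries lay above all E16.5 libraries, and the difference on the log2 scale was 1.013 ± 0.17 (SE) at an adjusted p of 0.113. Perp, a desmosomal membrane protein best known in epithelia, stood at 85.9, 93.6 and 90.02 CPM at E18.5, against 42.0, 89.3 and 52.2 CPM at E16.5 (log2 change 0.55, adjusted p = 0.539). Des, the desmin filament that desmosomes anchor, had a log2 change of -0.12. Markers of the epicardium were also mostly higher at E18.5. Of 9 such markers, 8 were higher at E18.5 and 1 passed, Krt19 (log2 change 1.23, adjusted p = 0.0219). They summed to 206 to 265 CPM at E18.5 and 158 to 166 CPM at E16.5. Most smooth muscle, fibroblast and atrial markers, given below, were higher at E18.5 as well. Krt14, from the list of epithelial genes, was also higher in every E18.5 library, while the other 4 tested genes of that list were lower. The part of any of these cell types in the Ppl difference was not tested.

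Of 19 other genes listed with the adherens junction, all tested, 8 were higher and 11 lower, and 0 passed. At an unadjusted p under 0.05, 1 was lower, the splicing-related gene Ctnnbl1. Their median was -0.07. The smallest p belonged to Ctnnbl1, a splicing-related protein that resembles beta-catenin (log2 change -0.35, adjusted p = 0.463), and Arvcf, a relative of p120-catenin (-0.42, adjusted p = 0.525). Of 9 other cadherins, 7 were tested, with 1 higher, 6 lower, 0 called, 1 lower at an unadjusted p under 0.05 and a median of -0.16. Among them were Cdh11, a cadherin of mesenchyme (-0.50, adjusted p = 0.485), and Cdh6 (-0.32, adjusted p = 0.706).

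Of 24 other disc genes, all tested, 17 were higher and 7 lower, and 0 passed. At an unadjusted p under 0.05, 2 were higher. Their median was 0.13. Myzap, which links the disc to actin signalling and binds desmoplakin and ZO-1, stood at 71.4, 87.8 and 73.5 CPM at E18.5, against 39.7, 63.9 and 47.6 CPM at E16.5. Its stages did not overlap, and the difference on the log2 scale was 0.62 ± 0.19 (SE) at an adjusted p of 0.356. Fhl2, a LIM-domain protein of heart muscle, differed by 0.55 on the log2 scale (adjusted p = 0.456). For the connexin gene Gja1, whose protein shares the disc, the value was 0.44 (adjusted p = 0.577). The 10 cardiomyocyte markers had a median of 0.26, with 8 higher, 2 lower and 0 called. Of other cell types, 4 of 4 smooth muscle markers (median 0.91, summed 581 to 660 CPM at E18.5 and 371 to 490 CPM at E16.5) and 7 of 7 fibroblast markers (median 0.38, summed 3252 to 4265 CPM at E18.5 and 1928 to 3089 CPM at E16.5) were higher at E18.5. Atrial markers were higher for 4 of 5 (median 0.48, summed 3563 to 4171 CPM at E18.5 and 1804 to 2743 CPM at E16.5). The test called 0 genes of these 3 lists, and at an unadjusted p under 0.05 it gave 3 smooth muscle, 2 fibroblast and 2 atrial genes as higher. The medians were 0.17 for 8 endothelial, -0.16 for 3 ventricular, -0.16 for 7 erythroid and -0.05 for 5 macrophage markers, and 0 of 5 thymus markers were tested. Their part in the values of the junction genes was not tested.

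Of 11 tight junction genes, all tested, 5 were higher and 6 lower, and 0 passed. At an unadjusted p under 0.05, 1 was higher and 2 were lower. Their median was -0.16. Cgn, cingulin, which binds ZO-1, stood at 13.8, 5.79 and 8.99 CPM at E18.5, against 4.37, 3.29 and 4.27 CPM at E16.5 (log2 change 1.26, adjusted p = 0.253). Tjp3 stood at 2.93, 1.56 and 2.28 CPM at E18.5, against 5.79, 3.29 and 5.14 CPM at E16.5 (log2 change -1.07, adjusted p = 0.356). Neither gene overlapped between the stages, and they lay on opposite sides of Tjp1 itself.

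Of 21 genes around beta-catenin's role in Wnt signalling, 20 were tested, with 8 higher, 12 lower, 0 called, 3 lower at an unadjusted p under 0.05 and a median of -0.17. Lef1, a DNA-binding partner of beta-catenin, stood at 1.13, 1.31 and 1.87 CPM at E18.5, against 3.19, 2.85 and 3.06 CPM at E16.5. All E18.5 libraries lay below all E16.5 libraries, with -1.08 ± 0.30 (SE) on the log2 scale and an adjusted p of 0.297. Notum, a secreted Wnt inhibitor that is itself a Wnt target, differed by -1.74 on the log2 scale (adjusted p = 0.338). For the target Axin2 the value was 0.29 (adjusted p = 0.695). RNA levels of Ctnnb1 do not measure the protein pools of the junction or the nucleus.

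**Figure D5:**
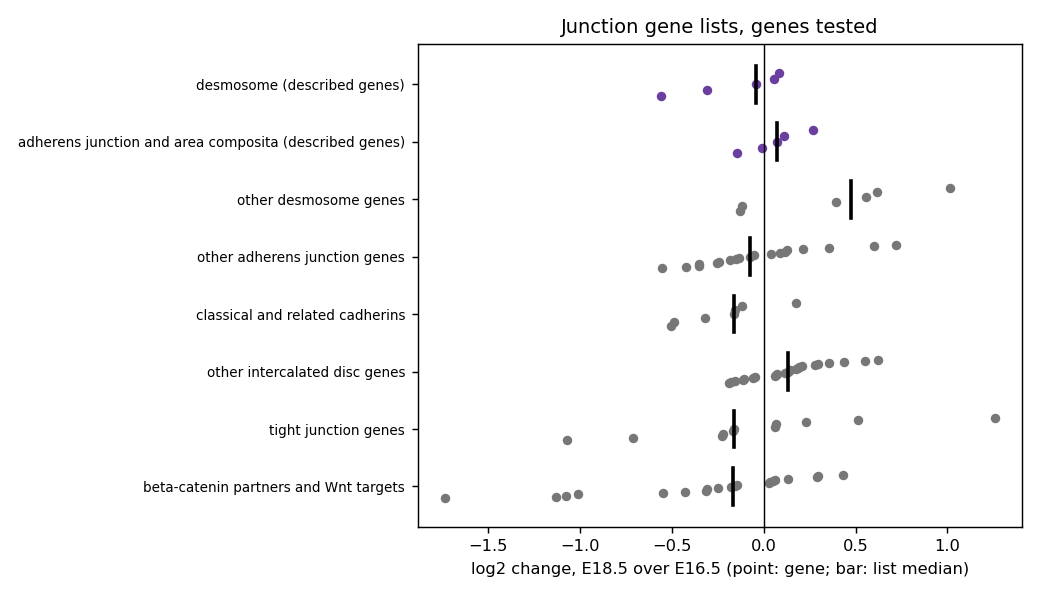
Log2 change of each tested gene, E18.5 over E16.5, by list, with a vertical bar at the list median. The described desmosomal and adherens genes lie between -0.56 and 0.27, and the other lists pooled between -1.74 and 1.26. Pkp2 lies below every tested gene of the other desmosome, adherens, cadherin and disc lists, and inside the tight junction and Wnt lists.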

How the data were processed

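Polyadenylated RNA of mouse hearts was sequenced as strand-marked, paired-end libraries whose adapters carried molecular identifiers, per the labels' protocols. The submitters' processing notes name StringTie (1.3.4d), HISAT2 (2.0.4), cutadapt (1.9) and UMI-tools, and the build mm9. The role of each tool, the handling of duplicate reads and any use of strand in counting are not stated there. The authors deposited estimated counts as whole numbers and FPKM values, 1 column of each per library, per the file headers. Counts were not rounded further. For 99.8% of 11385 genes whose lowest library held over 200 counts, the counts and FPKM gave the same ratios between libraries within 1%, apart from 1 factor per library. Positions are from GENCODE M21 (GRCm38) by identifier, which held all 10 members. The deposited start equals that of GENCODE for 675 of 29874 shared identifiers, so the deposited coordinates are not used. Genes that overlap a member held at most 2.64% of its counts. Apart from genes that overlap a member on the annotation, no other gene aligned over more than 312 bases at 90% identity or better (blastn 2.17.0).

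The test between stages was that of edgeR (version 4.0.16, R 4.3.3) (filterByExpr, TMM, quasi-likelihood test, two-sided, stage only). An adjusted p under 0.05 counts as a change. Intervals are at 95%, from the standard error and the test's degrees of freedom, and cover the spread between these 3 libraries per stage, which may be partly technical. Alternatives used DESeq2 1.42.0, limma 3.58.1 and other scalings. The members and lists were chosen with earlier results of these data known. The test was tried on simulated counts with the same dispersion for every gene and changes larger than those of the members. That trial does not measure how often changes of the members' size would be found. Named genes are the members, the 2 genes of smallest p in each junction list, family members, overlapping genes by count, and the nearest profiles; Gja1, Des, Axin2, Epcam, Krt14 and Sftpc beyond that rule were chosen after their values were seen. Genes of the marker lists are given by counts and sums, apart from those and Krt19. A few genes within this rule are not reported here.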

Additional observations from a re-analysis of the deposited data

How the results depend on the processing

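No member passed under any of the 15 alternatives fitted over all genes. Pkp2, Dsg2, Cdh2, Ctnna1 and Tjp1 kept their direction in every one of them, though Tjp1 was at 0.0017 without E16.5 replicate 1. Pkp2 ran from -0.73 to -0.42 on the log2 scale, with a lowest adjusted p of 0.0530 (without E16.5 replicate 2). Without any other single library, its adjusted p was 0.483 to 0.937. The number of genes called over the whole table depended far more on the setting. It was 30 as reported, 408 with DESeq2, 10 and 18 with limma on log2(FPKM + 1) and log2(FPKM + 0.1), 184 with the mitochondrial share as a term, and 8 to 371 when 1 library was left out, with 371 reached without E16.5 replicate 2. The median of the 10 members was 0.0873 and 0.115 in those limma fits, and -0.0575 to 0.0439 over the fits without 1 library. Members near 0 changed sign. With limma on log2(FPKM + 1) and log2(FPKM + 0.1), Jup was at 0.0576 and 0.0673 and Ctnna3 at 0.0548 and 0.0827. With the mitochondrial share as a term, Dsp was at -0.0213. Without 1 library each, Dsp ran from -0.0345 to 0.25, Jup from -0.13 to 0.0080, Dsc2 from -0.0675 to 0.14, Ctnna3 from -0.0830 to 0.0809 and Ctnnb1 from -0.0661 to 0.22. The cause of these shifts was not tested. Sums with overlapping genes and all partner ratios kept their direction. Without 1 library each, the log2 difference ran from -0.97 to -0.39 for Pkp2/Dsp, -0.44 to -0.23 for Dsg2/Dsc2, -0.39 to -0.18 for Ctnna3/Ctnna1, -0.27 to -0.0871 for Dsg2/Cdh2, -0.21 to -0.0680 for Jup/Ctnnb1 and 0.16 to 0.40 for Tjp1/Cdh2. Deviations of same-numbered libraries correlated at 0.54, 0.49 and -0.01, and those of differently numbered libraries at -0.61 to 0.32. Whether the replicate numbers pair the libraries is not settled by these values. With the replicate block, 43 genes were called, 0 of them members, and Pkp2 was at -0.54 with an adjusted p of 0.203.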
